A study of Rattus norvegicus with 4 samples.

Results

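The receptors for luteinizing hormone (Lhcgr), follicle-stimulating hormone (Fshr) and prolactin (Prlr) were followed in rat granulosa cells, which surround the oocyte in the ovarian follicle and make estradiol. They were found as the array probe sets annotated with exactly 1 of these 3 symbols, which gave 5 of the 31099 probe sets, 2 for Lhcgr and 3 for Prlr. No probe set carried the symbol Fshr in the annotation used, so that the expression of Fshr was not analysed here. The series had 4 groups with 1 array each, and every group came from primary cells of immature female Sprague-Dawley rats aged 23 to 25 days that had received estradiol, cultured without serum in the medium on dishes coated with 1% serum. The FOXOA3 FSH cells carried an adenovirus for a constitutively active FOXO1, the FOXOA3-mDBD FSH cells one for the same protein with a mutated DNA-binding domain, and the GFP FSH and GFP vehicle cells one for green fluorescent protein. Infection lasted 4 h and was followed by 24 h with FSH at 100 ng/ml, or with vehicle in the GFP vehicle group only. No source used here gives the promoter that drives the vectors, the amount of virus or the number of cultures behind an array.

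FSH and luteinizing hormone are pituitary gonadotropins, and their receptors are related 7-helix proteins that couple to the stimulatory G protein and raise cyclic AMP. Granulosa cells of small follicles respond to FSH and acquire the luteinizing hormone receptor as the follicle matures, which prepares it for the ovulatory surge. The prolactin receptor belongs to a different family, the class I cytokine receptors. It signals through the kinase JAK2 and the STAT5 factors and, in rodents, sustains the corpus luteum that forms from these cells after ovulation. FOXO1 is a forkhead transcription factor that is abundant in granulosa cells of growing follicles, and FSH signalling through AKT removes it from the nucleus.

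The sequences before the transcription starts of the receptors are shown because Lhcgr and Prlr were high and low on the same arrays. They are the 250 bases before each start in the RefSeq promoter table of build GRCr8, all on the plus strand. Lhcgr has 1 start there, at the end of chr6:11415165-11415414, Fshr 1, at the end of chr6:10952079-10952328, and Prlr 2, at the ends of chr2:60861515-60861764 and chr2:60909409-60909658. Capitals mark matches to the motifs named after the sequences. The RefSeq span of Lhcgr begins at 11415361, inside its window, and that of Prlr at 60861391, before its first window. These starts are therefore not the outermost ends of those genes. Which start these cells used was not tested.
Lhcgr: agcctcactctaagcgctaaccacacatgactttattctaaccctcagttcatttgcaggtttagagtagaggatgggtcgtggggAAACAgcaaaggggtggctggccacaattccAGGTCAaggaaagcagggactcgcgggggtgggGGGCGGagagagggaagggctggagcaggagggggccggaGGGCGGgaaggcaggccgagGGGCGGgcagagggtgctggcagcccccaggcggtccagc
Fshr: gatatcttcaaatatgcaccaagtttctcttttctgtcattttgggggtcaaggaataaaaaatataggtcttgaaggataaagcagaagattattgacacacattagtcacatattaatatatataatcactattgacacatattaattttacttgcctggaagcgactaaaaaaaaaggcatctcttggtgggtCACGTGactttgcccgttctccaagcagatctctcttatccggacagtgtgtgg
Prlr, start 1: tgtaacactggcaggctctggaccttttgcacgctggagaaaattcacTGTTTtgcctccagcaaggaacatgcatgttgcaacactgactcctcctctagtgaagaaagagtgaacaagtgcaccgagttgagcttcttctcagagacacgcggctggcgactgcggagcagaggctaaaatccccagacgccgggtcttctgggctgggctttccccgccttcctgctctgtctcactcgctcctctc
Prlr, start 2: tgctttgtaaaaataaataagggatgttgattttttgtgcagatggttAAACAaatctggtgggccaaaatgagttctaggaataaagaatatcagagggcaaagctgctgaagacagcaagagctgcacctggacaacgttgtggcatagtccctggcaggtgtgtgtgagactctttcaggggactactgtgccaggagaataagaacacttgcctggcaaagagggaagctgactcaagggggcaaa
The motifs were searched on both strands, and their shares were taken over 33469 windows of the same length. The Lhcgr window held 3 GC boxes (GGGCGG, present in 30.5% of windows), starting 100, 60 and 40 bases before the start, and 1 core of the steroidogenic factor site (AGGTCA, in 14.1%) at 133 bases. The Fshr window held 1 E box (CACGTG, in 5.59%) at 54 bases. The short core of forkhead sites (AAACA, in 47.0% of windows) occurred once in the Lhcgr window and once in each Prlr window, and it was not in the Fshr window. The longer forkhead motif GTAAACA (3.21%), the full steroidogenic factor site CAAGGTCA (1.33%), the GATA motif AGATAA (10.3%), the cyclic AMP element TGACGTCA (1.59%) and TATAAA (12.9%) were in none of the 4 windows. The core AGGTCA lies within CAAGGTCA, and AAACA within GTAAACA, so that a match to the longer motif would also count for the shorter. The share of G and C was 63.2% for Lhcgr, 36.8% for Fshr, and 55.2% and 45.6% for the Prlr starts, beside a median of 51.2% over all windows. These matches describe the letters and show no binding. In the RefSeq table Fshr and Lhcgr are neighbours on chromosome 6 with 0 protein-coding genes between them, while Prlr lies on chromosome 2.

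A few facts of the arrays touch all values. With 1 array per group, no difference has a replicate check, and no p-values were computed. Signals are the deposited MAS5 values on a linear scale, and the floor, the median signal of all non-control probe sets, was 100.5. Signals below it were raised to it before a ratio was taken, and a ratio with 1 side at the floor is written "at least". Bacterial poly-A transcripts, which are spiked into samples before labelling, had a geometric mean signal between 21.4 and 22.6 on the FOXOA3 FSH and GFP vehicle arrays and between 394.6 and 539.4 on the FOXOA3-mDBD FSH and GFP FSH arrays. FOXOA3-mDBD FSH over GFP FSH and FOXOA3 FSH over GFP vehicle therefore compare arrays of the same spike state. A further set of controls, for hybridisation, also differed between these pairs of arrays. Its geometric mean signal was 1224.5 on FOXOA3 FSH and 1646.6 on GFP vehicle, against 2855.1 on FOXOA3-mDBD FSH and 2759.3 on GFP FSH. For beta-actin the 3' probe set was 9.79 to 12.0 times as bright as the 5' one on the FSH arrays and 5.15 times on GFP vehicle. For GAPDH the ratios lay closer together, at 2.84 on FOXOA3 FSH, 3.15 on FOXOA3-mDBD FSH, 2.46 on GFP FSH and 2.32 on GFP vehicle.

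FSH was accompanied by high signals of both measured receptors. Lhcgr, read by probe set 1387423_at, had a signal of 4401.7 on GFP FSH and 20.0 on GFP vehicle, so that it was at least 43.8-fold higher with the hormone (log2 ratio 5.45 or above). Prlr, read by probe set 1370384_a_at, had 5041.8 on GFP FSH and 97.4 on GFP vehicle, at least 50.2-fold higher (5.65 or above). Both vehicle signals were below the floor, that of Prlr only just. Of the 9578 genes measured in this comparison, 6.84% were 2-fold or more higher, 11.1% were lower and the median log2 ratio was 0.00. The deposited signals taken without a floor gave ratios of 7.78 for Lhcgr and 5.69 for Prlr on the log2 scale, so that the order of the 2 genes in the FSH comparison depends on how dim signals are treated. This comparison crosses the spike state. In whole cultures such as these, more cells with a transcript and more transcript per cell cannot be told apart.

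**Figure D1:**
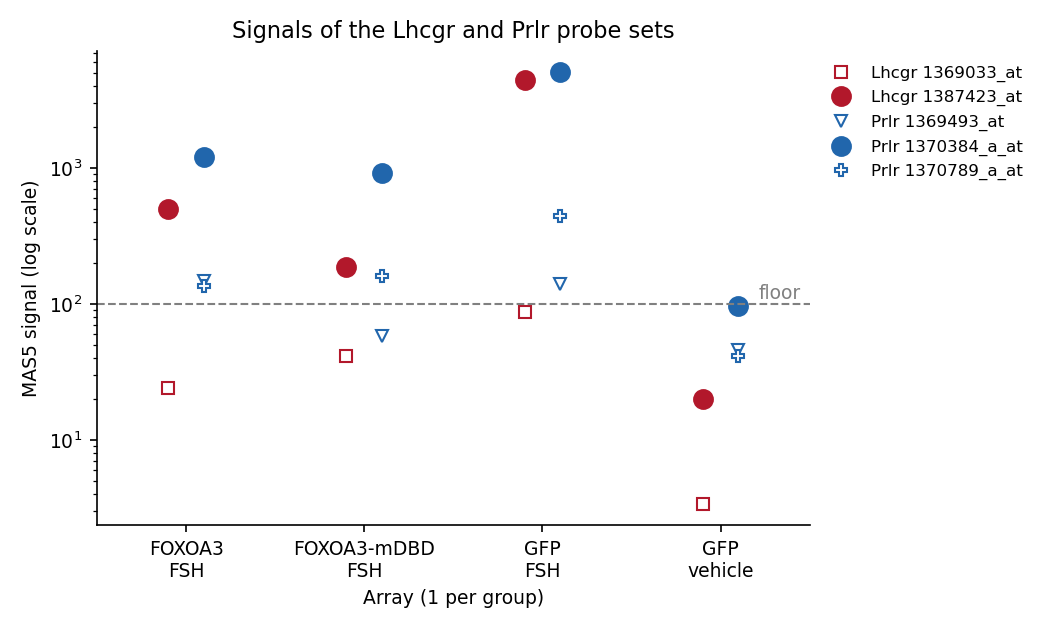
MAS5 signal on a log axis of the 5 probe sets of Lhcgr and Prlr on the 4 arrays (1 per group). Filled circles are the brightest probe set of each gene, open symbols the others, and the dashed line is the floor of 100.5. Both filled circles stand highest on GFP FSH and below the floor on GFP vehicle.

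Active FOXO1 was accompanied by lower signals of both receptors in FSH-treated cells. Lhcgr had a signal of 497.4 on FOXOA3 FSH and 4401.7 on GFP FSH, a fold of 8.85 lower (log2 ratio -3.15), which left 11.3% of the GFP FSH signal. Prlr had 1210.5 on FOXOA3 FSH and 5041.8 on GFP FSH, 4.17-fold lower (-2.06), or 24.0% of the GFP FSH signal. All 4 of these signals were above the floor. Among the 8745 genes above the floor on both arrays, the Lhcgr ratio ranked 2 from the lowest and the Prlr ratio 49. Of all 9941 measured genes, 6.99% were 2-fold or more lower and 11.1% higher. The spike state differs between these arrays as well, and its part in the ratios was not tested.

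The DNA-binding mutant was accompanied by still lower signals, on an array with the spike state of its GFP FSH comparator. Lhcgr had 185.5 on FOXOA3-mDBD FSH and 4401.7 on GFP FSH, 23.7-fold lower (log2 ratio -4.57), which is 4.21% of the GFP FSH signal. Prlr had 925.1 on FOXOA3-mDBD FSH and 5041.8 on GFP FSH, 5.45-fold lower (-2.45), or 18.3%. The ranks from the lowest were 2 for Lhcgr and 116 for Prlr among 8325 genes above the floor on both arrays. Genes that were below the floor with the mutant are outside these ranks, among them Ass1, which was at least 24.2-fold lower. Of the 9748 measured genes 19.2% were 2-fold or more lower and 12.5% higher, and the median log2 ratio of all measured genes was -0.16. The comparisons with GFP FSH share that array, so that their ratios are not independent of each other. Of the 655 genes that were 2-fold or more higher with FSH, 277, or 42.3%, were 2-fold or more lower with each FOXO1 vector, and Lhcgr and Prlr were among them.

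FOXOA3 FSH over FOXOA3-mDBD FSH set the active protein against its DNA-binding mutant. Lhcgr had 497.4 on FOXOA3 FSH, against 185.5 on FOXOA3-mDBD FSH, a 2.68-fold higher signal (log2 ratio 1.42). With loess normalization the ratio was 1.81-fold, under the 2-fold threshold. Prlr had 1210.5 on FOXOA3 FSH, against 925.1 on FOXOA3-mDBD FSH, a 1.31-fold ratio (0.39) that lies under the 2-fold threshold. In this comparison 19.0% of 10092 measured genes were 2-fold or more higher and 9.24% lower, and the median log2 ratio was 0.21. That split depends on the scaling, with 1913 higher and 932 lower genes as deposited, 1315 and 1319 with centred ratios and 1076 and 1281 with loess. The ratio of Lhcgr exceeded that of 91.6% of the 8604 genes above the floor on both arrays, and that of Prlr exceeded 59.1%.

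Set against vehicle, FSH-treated cells with FOXOA3 had a higher signal of both receptors. On FOXOA3 FSH the Lhcgr signal of 497.4 was at least 4.95-fold higher than on GFP vehicle, where it was 20.0. For Prlr the signals were 1210.5 on FOXOA3 FSH and 97.4 on GFP vehicle, at least 12.0-fold higher. These arrays share a spike state, and 5.32% of 9904 measured genes were 2-fold or more higher and 4.01% lower. On FOXOA3-mDBD FSH, Prlr was at least 9.20-fold higher than on GFP vehicle, with 925.1 against 97.4. Lhcgr, with 185.5 against 20.0, was at least 1.85-fold higher, a bound under the 2-fold threshold that centred ratios (2.08-fold) and loess (2.15-fold) carried past it, in a comparison where 13.0% of 9861 measured genes were 2-fold or more higher and 22.5% lower. The floored ratios over vehicle do not order the genes, since the vehicle signal of Lhcgr lies far below the floor. The deposited signals without a floor gave log2 ratios of 4.64 for Lhcgr and 3.64 for Prlr in FOXOA3 FSH over GFP vehicle, and of 3.21 and 3.25 in FOXOA3-mDBD FSH over GFP vehicle. Relative to GFP FSH, where no signal was at the floor, the Lhcgr ratio was lower than the Prlr ratio by 1.09 log2 units with FOXOA3 and by 2.12 with FOXOA3-mDBD.

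**Figure D2:**
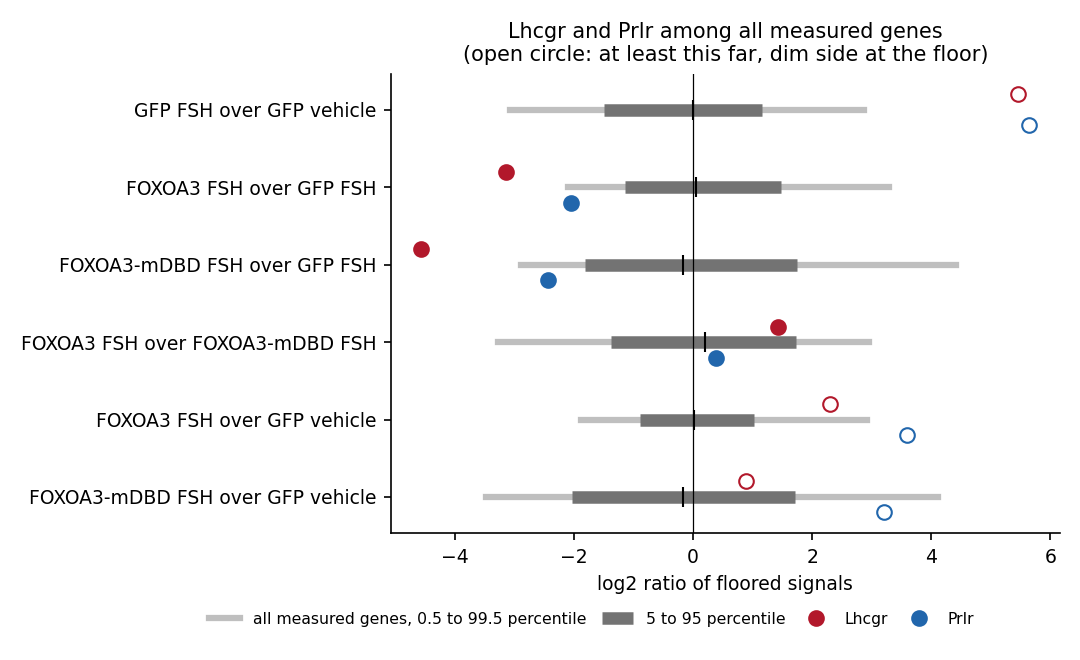
Log2 ratio of floored signals of Lhcgr and Prlr in the 6 comparisons, over thin and thick bars that span the outer and inner percentile ranges of all measured genes named in the key. Open circles are lower bounds. Both genes lie right of the bars in GFP FSH over GFP vehicle, and Lhcgr lies left of the bars in both comparisons of a FOXO1 vector with GFP FSH.

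The other probe sets of the genes had lower mean signals, and those of Prlr gave smaller ratios in GFP FSH over GFP vehicle and in both comparisons of a FOXO1 vector with GFP FSH. The second Lhcgr probe set, 1369033_at, had signals of 24.0 on FOXOA3 FSH, 41.6 on FOXOA3-mDBD FSH, 87.0 on GFP FSH and 3.4 on GFP vehicle. All 4 lie below the floor, so that it gives no ratio. Its highest value was also on GFP FSH, but its order of the FOXO1 arrays was the opposite of that of 1387423_at. For Prlr, 1370789_a_at had 134.8, 160.7, 441.4 and 41.6 on FOXOA3 FSH, FOXOA3-mDBD FSH, GFP FSH and GFP vehicle. It was at least 4.39-fold higher in GFP FSH than in GFP vehicle, 3.27-fold lower in FOXOA3 FSH than in GFP FSH and 2.75-fold lower in FOXOA3-mDBD FSH than in GFP FSH, and its order of the FOXO1 arrays was the opposite of that of 1370384_a_at. The third Prlr probe set, 1369493_at, had 146.8 on FOXOA3 FSH, 58.0 on FOXOA3-mDBD FSH, 141.1 on GFP FSH and 45.9 on GFP vehicle. It was at least 1.40-fold higher with FSH, and its FOXOA3 FSH and GFP FSH signals differed by only 1.04-fold. The Prlr probe sets thus disagree on FOXOA3 FSH over GFP FSH, with 2 of 3 more than 2-fold lower. Rat Prlr is known to make long and short receptor forms by splicing, and RefSeq lists 2 curated and 10 predicted transcripts. The suffix of 1370384_a_at and 1370789_a_at marks probe sets that match several transcripts of a gene, but no source used here says which forms each reads. A Prlr ratio is therefore that of its probe set and not of a form.

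To place the receptors among the other genes, each gene's floored log2 signals were centred on its mean over the 4 arrays, and the root mean square distance from Lhcgr or Prlr was taken over 10406 genes above the floor on any array. The median distance from Lhcgr was 2.09 and that from Prlr 2.05 log2 units. Nearest to Lhcgr were Acsbg1, an acyl-CoA synthetase (0.24), Ass1, argininosuccinate synthase (0.38), the secreted matrix protein Tgfbi (0.57), the aromatase Cyp19a1 (0.57) and the small GTPase Rasd1 (0.57). Acsbg1 had 463.0, 178.5, 2900.6 and 54.8 on FOXOA3 FSH, FOXOA3-mDBD FSH, GFP FSH and GFP vehicle, and Cyp19a1 had 725.5, 274.8, 13042.1 and 35.0. Cyp19a1, which makes estradiol from androgen, was at least 129.8-fold higher in GFP FSH than in GFP vehicle and 47.5-fold lower in FOXOA3-mDBD FSH than in GFP FSH. These genes were chosen by their likeness on these arrays, so that their shared pattern is a description.

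Nearest to Prlr were Fam110c (0.12), G0s2, an inhibitor of triglyceride lipase (0.15), the mTORC1 inhibitor Ddit4 (0.22), Mrap, which helps the ACTH receptor to the cell surface (0.25), and Crabp2, a carrier of retinoic acid (0.33). Fam110c had 1025.5 on FOXOA3 FSH, 741.0 on FOXOA3-mDBD FSH, 4634.4 on GFP FSH and 37.5 on GFP vehicle. Mrap had 1476.5, 1050.4, 3915.7 and 50.3 on the same arrays. For these genes, as for Prlr, the signals under both FOXO1 vectors lay between those of GFP FSH and GFP vehicle, and the FOXO1 arrays differed by less than 2-fold. Prlr and Lhcgr were 0.93 log2 units apart, which made Prlr number 21 from Lhcgr and Lhcgr number 20 from Prlr. Likeness over 4 arrays is a description of these arrays, and values at the floor add to it.

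**Figure D3:**
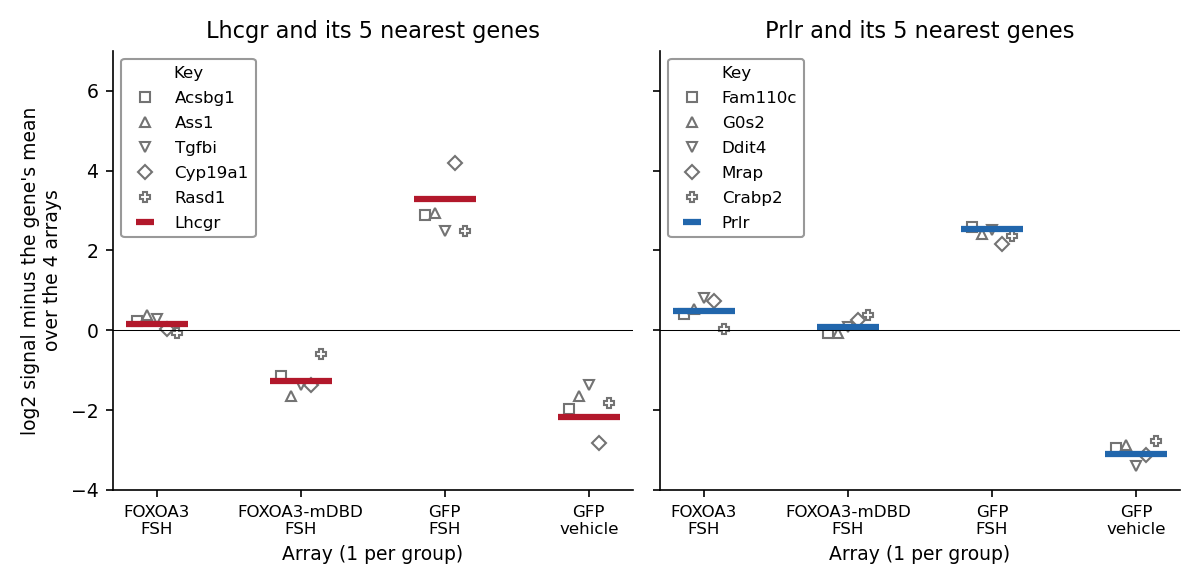
Floored log2 signal minus the gene's mean over the 4 arrays for Lhcgr and its 5 nearest genes and for Prlr and its 5 nearest genes, 1 value per array. Horizontal dashes are the receptors. FOXOA3 FSH over FOXOA3-mDBD FSH was 1.42 for Lhcgr and 0.39 for Prlr on the log2 scale, and among their nearest genes it was 0.53 for Rasd1 and 0.72 for Ddit4.

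Of the genes beside Prlr on its chromosome, Agxt2 and Spef2 were below the floor on all arrays. Dnajc21, a co-chaperone, had 311.1 on FOXOA3 FSH, 598.8 on FOXOA3-mDBD FSH, 226.7 on GFP FSH and 222.6 on GFP vehicle, and its GFP FSH and GFP vehicle signals were within 2-fold of each other. The genes beyond Lhcgr, Gtf2a1l and Ston1, were not named on the array in the annotation used.

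Transcription factors reported at the promoters of these receptors were examined as a list of 18 genes, all on the array. In GFP FSH over GFP vehicle 1 of 13 measured members was 2-fold or more higher and 3 were lower (6.84% and 11.1% of all measured genes), with a median log2 ratio of 0.10. The higher one was Nr5a2, the nuclear receptor LRH-1, with 10820.2 on GFP FSH and 2210.2 on GFP vehicle (4.90-fold). Nr5a1, or SF-1, which binds the AGGTCA core searched above, had 1800.2 on GFP FSH and 1213.6 on GFP vehicle, a 1.48-fold ratio. The lower ones were Usf1, an E-box factor (3.07-fold), Foxo1 (2.85-fold) and Nr2f2 (2.27-fold). In FOXOA3 FSH over GFP FSH 3 of 13 members were higher and 2 lower (median -0.12), beside 11.1% and 6.99% of all measured genes. Cebpb was 5.33-fold, Usf1 3.81-fold and Nr2f2 2.12-fold higher, and Nr5a2 2.58-fold and Gata4 2.46-fold lower. The Foxo1 probe set does not check the vectors, since no source used here gives the transgene's species or the part of the transcript it reads.

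More of the factors stood apart from GFP FSH under the DNA-binding mutant. In FOXOA3-mDBD FSH over GFP FSH 8 of 14 measured factors were 2-fold or more lower and 1 was higher, beside 19.2% lower and 12.5% higher over all measured genes, with a median of -1.37 against -0.16 for all. Gata4, a zinc finger factor of gonadal cells, had 358.1 on FOXOA3-mDBD FSH and 3762.2 on GFP FSH (10.5-fold lower). Nr5a1 had 243.1 on FOXOA3-mDBD FSH and 1800.2 on GFP FSH (7.41-fold lower). Nr5a2 was 2.90-fold lower, and Sp1, which binds GC boxes, 2.32-fold lower. Usf1 was 3.31-fold higher and its partner Usf2 3.24-fold lower. Against GFP vehicle, the list had 8 of 14 lower on FOXOA3-mDBD FSH and 1 of 13 lower on FOXOA3 FSH, where the shares over all measured genes were 22.5% and 4.01%. In FOXOA3 FSH over FOXOA3-mDBD FSH 7 of 14 were higher and 1 lower (19.0% and 9.24% of all measured genes), and Cebpb, with 2773.5 against 99.1, was at least 27.6-fold higher. Nr5a1 and Gata4 were thus low on the array where Lhcgr had its lowest FSH signal. On FOXOA3 FSH Nr5a1 had 1506.4, 1.20-fold below GFP FSH, where Lhcgr was 8.85-fold lower. On GFP vehicle, where Lhcgr had its lowest signal of all, Nr5a1 had 1213.6 and Gata4 1991.7. The part of these factors in the Lhcgr ratios was not tested.

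Both gonadotropin receptors act through the stimulatory G protein and protein kinase A. Of 15 or 16 measured genes of that list, 2 were 2-fold or more higher and 2 lower in GFP FSH over GFP vehicle, 1 and 1 in FOXOA3 FSH over GFP FSH, and 2 and 3 in FOXOA3-mDBD FSH over GFP FSH. Over all measured genes the shares higher and lower were 6.84% and 11.1%, 11.1% and 6.99%, and 12.5% and 19.2% in these comparisons. The list medians in these comparisons were -0.24, 0.29 and -0.12. Gnas, the stimulatory alpha subunit, had 4798.6 on FOXOA3 FSH, 4561.6 on FOXOA3-mDBD FSH, 7306.7 on GFP FSH and 6367.7 on GFP vehicle, within 2-fold throughout. Prkar2b, a regulatory subunit of the kinase, had 7742.1, 6563.3, 22751.5 and 7931.9 on the same arrays and so had, like the receptors, its highest signal on GFP FSH, 2.87-fold above GFP vehicle. Crem, a cyclic AMP response factor, was 3.26-fold higher in GFP FSH than in GFP vehicle.

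Genes of receptor desensitisation, trafficking and messenger decay numbered 12 measured members. In GFP FSH over GFP vehicle 3 were higher and 2 lower, in FOXOA3 FSH over GFP FSH 1 higher and 2 lower, and in FOXOA3-mDBD FSH over GFP FSH 2 higher and 3 lower. The shares over all measured genes were 6.84% higher and 11.1% lower, 11.1% and 6.99%, and 12.5% and 19.2%. Mvk, the mevalonate kinase that in the rat ovary also binds the Lhcgr messenger and is linked to its decay, had 359.2 on FOXOA3 FSH, 169.6 on FOXOA3-mDBD FSH, 1292.4 on GFP FSH and 522.5 on GFP vehicle. It was 2.47-fold higher in GFP FSH than in GFP vehicle and 7.62-fold lower in FOXOA3-mDBD FSH than in GFP FSH, the directions of Lhcgr itself. Relative to GFP vehicle, Mvk was 1.45-fold lower on FOXOA3 FSH and 3.08-fold lower on FOXOA3-mDBD FSH. Lhcgr was at least 4.95-fold and 1.85-fold higher in these. The part of Mvk in the Lhcgr ratios was not tested. Rgs2, a regulator of G protein signalling, was 3.20-fold higher in GFP FSH than in GFP vehicle. Appl1, an adaptor that binds the human FSH receptor, was 2.11-fold lower in GFP FSH than in GFP vehicle, 2.58-fold higher in FOXOA3 FSH than in GFP FSH and 4.55-fold higher in FOXOA3-mDBD FSH than in GFP FSH. Arrestin Arrb2 stayed near the floor, with signals from 63.6 to 142.3.

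Downstream of the prolactin receptor, 1 of 10 measured genes was 2-fold or more higher and 1 lower in GFP FSH over GFP vehicle, close to the shares over all measured genes (6.84% and 11.1%). The higher one, Hsd17b7, is a sterol enzyme that was also isolated from rat corpus luteum as a protein bound to the prolactin receptor. It had 1158.4 on FOXOA3 FSH, 605.1 on FOXOA3-mDBD FSH, 7026.5 on GFP FSH and 847.6 on GFP vehicle, 8.29-fold higher in GFP FSH than in GFP vehicle. The lower one was the kinase Src (3.51-fold). Jak2, the kinase bound to the receptor, had 311.0 on FOXOA3 FSH, 813.7 on FOXOA3-mDBD FSH, 161.6 on GFP FSH and 207.6 on GFP vehicle, highest with the mutant and 5.04-fold above GFP FSH there. Stat5a had 413.1, 148.1, 279.3 and 458.1 and Stat5b 243.0, 205.0, 104.3 and 180.8 on these arrays, neither of them highest on GFP FSH. Of the feedback genes that STAT5 induces, Cish lay between 110.9 and 202.2, and Socs2 had 154.1, 21.1, 330.2 and 218.3 in the same order of arrays. In FOXOA3 FSH over GFP FSH 2 of 10 members were higher and 2 lower (11.1% and 6.99% of all measured genes), and in FOXOA3-mDBD FSH over GFP FSH 1 of 11 was higher and 4 lower (12.5% and 19.2%). No prolactin treatment is given in the labels.

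**Figure D4:**
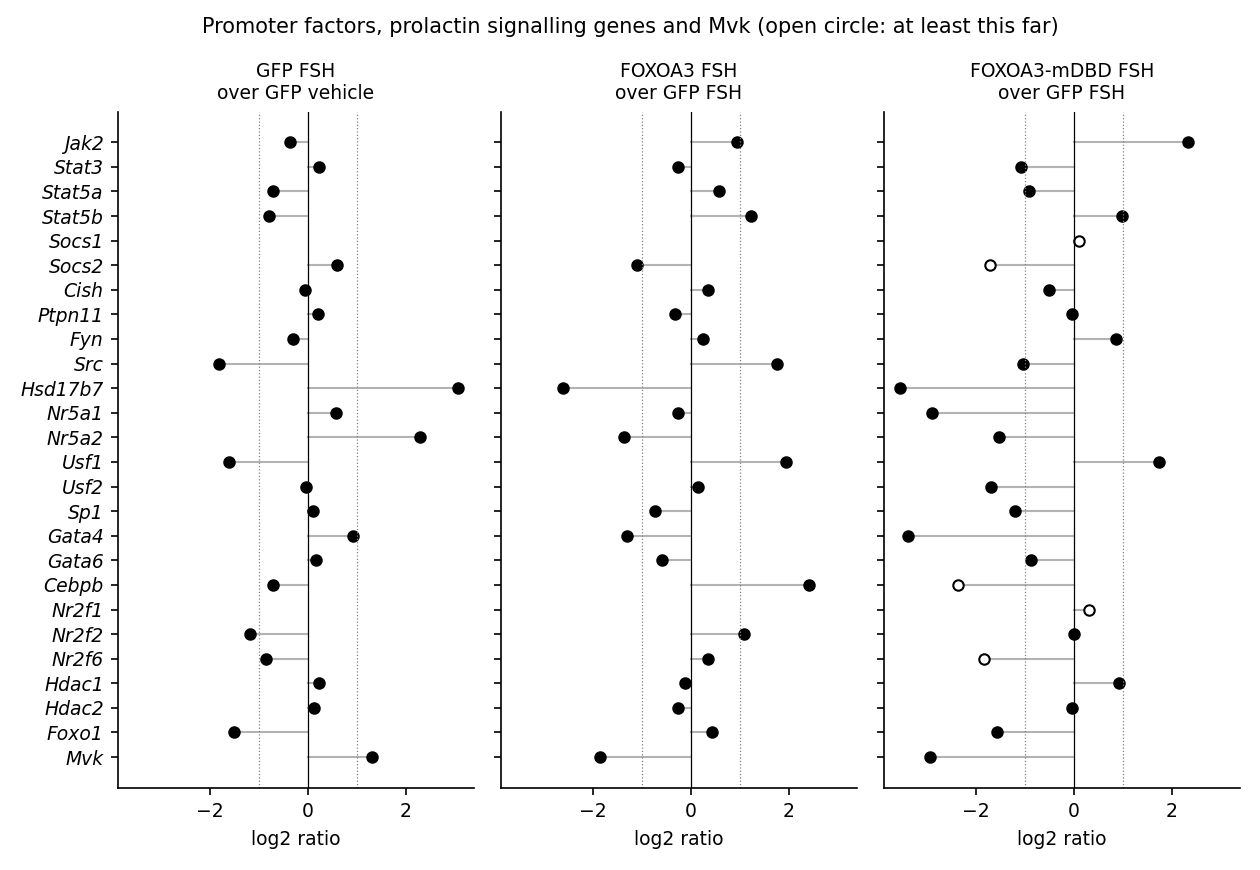
Log2 ratio of floored signals for the measured promoter factors and prolactin signalling genes and for Mvk in 3 comparisons. Open circles are lower bounds, and dotted lines mark 2-fold. Nr5a1 and Gata4 lie far left in FOXOA3-mDBD FSH over GFP FSH, with log2 ratios of -2.89 and -3.39.

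The pituitary hormones, which include the ligands of the 3 receptors, are made mainly outside the ovary. Fshb, Prl, Gh1 and Tshb were below the floor on all arrays, and Cga and Lhb did not exceed 169.9. Markers of granulosa cells were above the floor on 1 or more arrays for 12 of 12 genes, with summed signals of 46602.7, 28843.9, 109960.0 and 36516.8 on FOXOA3 FSH, FOXOA3-mDBD FSH, GFP FSH and GFP vehicle. Of these 12 markers, 7 were 2-fold or more higher in GFP FSH than in GFP vehicle and 0 were lower (6.84% and 11.1% of all measured genes). Relative to GFP FSH, 8 were lower with FOXOA3 and 10 with the mutant (6.99% and 19.2% of all measured genes). These are the directions of Lhcgr and Prlr. Relative to GFP vehicle, 2 were higher and 0 lower with FOXOA3 (5.32% and 4.01% of all measured genes). With the mutant 2 were higher and 5 lower than in GFP vehicle (13.0% and 22.5%). The part of the granulosa markers in the receptor ratios was not tested. Foxl2, the defining factor of these cells, had 4296.8, 994.1, 3536.3 and 5546.4. Luteal markers, 4 of 5 above the floor on some array, summed to 35069.9, 34801.5, 72830.5 and 9034.2 on the same arrays. The 4 were Star, Cyp11a1, Hsd3b1 and Scarb1, and whether their signals come from luteal cells was not tested. Ptgfr was below the floor on all arrays, and Akr1c18 had no probe set in the annotation used. Theca cells also carry the luteinizing hormone receptor, but their markers Cyp17a1, Insl3 and Gli1 were below the floor on all arrays, at 58.5 or less for Cyp17a1 and 90.0 or less for Insl3. Stroma and smooth muscle markers, 7 of 8 above the floor on some array, summed to 24332.2 on FOXOA3 FSH, 1458.7 on FOXOA3-mDBD FSH, 2184.2 on GFP FSH and 16666.9 on GFP vehicle. The members did not move as one. Tagln (9167.1), Acta2 (3710.6) and Col3a1 (2606.9) made up most of the GFP vehicle sum. Dcn (12504.1) and Col3a1 (7556.3) made up most of the FOXOA3 FSH sum. Between GFP vehicle and GFP FSH, Dcn (624.1 and 485.2) and Lum (241.5 and 215.8) stayed within 2-fold. Both receptors were below the floor on GFP vehicle, and the part of these markers in the receptor ratios was not tested. FOXOA3-mDBD FSH and GFP FSH, the arrays with the lower sums, also differed in these markers, with Dcn at 205.7 and 485.2. How far such differences bear on the 23.7-fold lower Lhcgr and 5.45-fold lower Prlr of that comparison was not tested. Leukocyte markers had 1 of 5 and endothelial markers 2 of 4 above the floor on any array, with summed signals of at most 302.3 and 496.9. Oocyte markers had 3 of 5 above it, with sums from 442.7 to 1200.0.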

How the data were processed

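Gene expression in rat granulosa cells was read on 4 arrays, 1 per group. The authors deposited each probe set's brightness as a linear intensity, for which the submitters' processing notes name MAS5. No source used here gives its version or settings. MAS5 subtracts mismatch signals and scales each array, which makes ratios of dim probe sets noisy. The 2% trimmed means lay between 500.1 and 500.2, so no scaling was added. Platform annotation gave 1 symbol to 20826 non-control probe sets and several to 436, which stayed unnamed. Each of 14217 genes was read by its probe set of highest mean over the arrays. Signals were raised to the floor of 100.5, log2 was taken, and genes whose higher signal was above the floor counted as measured. A fold of 2 was the threshold. With 1 array per group nothing was tested, and the number of arrays limits the precision. The ratio and likeness steps were tested on simulated data. Genes were named as all members, the 5 nearest genes of each, 2 chromosome neighbours a side, genes fixed by role, and up to 3 of the largest ratios per list and comparison. The members, the 15 lists and the rules were chosen with earlier results of these data known. Alternatives covered the floor, normalization and probe set. Work used Python 3.11.15, pandas 2.3.3, statsmodels 0.14.6 and matplotlib 3.10.9.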

Additional observations from a re-analysis of the deposited data

How the results depend on the processing

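The log2 ratios of Lhcgr and Prlr kept their direction under all alternatives that gave a ratio, in every comparison that passed 2-fold, with 1 exception. That was Prlr in FOXOA3 FSH over GFP FSH with probe set 1369493_at, where the value was 0.057. Quantile normalization, centring and loess moved no Lhcgr or Prlr ratio by over 1.5-fold, but loess took Lhcgr in FOXOA3 FSH over FOXOA3-mDBD FSH to 0.86, under 2-fold, and centred ratios and loess took it in FOXOA3-mDBD FSH over GFP vehicle to 1.05 and 1.10, past 2-fold. Lhcgr in GFP FSH over GFP vehicle was 7.33 with the floor at the 25th percentile, 3.02 at the 75th, 7.78 with no floor, 6.41 with a pseudocount of 32 and 2.73 with the mean of probe sets, where the second probe set stands at the floor by construction. In FOXOA3 FSH over GFP vehicle it was 4.18, 4.64 and 3.35 with the 25th percentile, no floor and the pseudocount, and 1.15 with the mean, and in FOXOA3-mDBD FSH over GFP vehicle 2.76, 3.21 and 2.06, past 2-fold. The mean of probe sets gave Lhcgr -1.57 in FOXOA3 FSH over GFP FSH, -2.28 in FOXOA3-mDBD FSH over GFP FSH and 0.71 in FOXOA3 FSH over FOXOA3-mDBD FSH, under 2-fold. The 75th percentile floor gave -3.02 in both comparisons of a FOXO1 vector with GFP FSH, since both FOXO1 signals stood at that floor. It gave Lhcgr no ratio in FOXOA3 FSH over FOXOA3-mDBD FSH or in either FOXO1 vector over GFP vehicle. Prlr with the mean of probe sets was 2.76 in GFP FSH over GFP vehicle, -1.24 in FOXOA3 FSH over GFP FSH, -1.46 in FOXOA3-mDBD FSH over GFP FSH, and 1.52 and 1.29 in FOXOA3 FSH and FOXOA3-mDBD FSH over GFP vehicle. With the 75th percentile floor it was 3.22 in GFP FSH over GFP vehicle, 1.16 in FOXOA3 FSH over GFP vehicle and 0.77 in FOXOA3-mDBD FSH over GFP vehicle. Probe set 1370789_a_at gave Prlr 2.13 in GFP FSH over GFP vehicle, -1.46 in FOXOA3-mDBD FSH over GFP FSH, -0.25 in FOXOA3 FSH over FOXOA3-mDBD FSH, and 0.42 and 0.68 in FOXOA3 FSH and FOXOA3-mDBD FSH over GFP vehicle. Probe set 1369493_at gave 0.49 in GFP FSH over GFP vehicle, -0.49 in FOXOA3-mDBD FSH over GFP FSH and 0.55 in FOXOA3 FSH over GFP vehicle. Why the probe sets differ was not tested.

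The count of genes at 2-fold or more moved by over 1.5 times with the floor only. At the 25th percentile it was 2651 in GFP FSH over GFP vehicle, 2956 in FOXOA3 FSH over GFP FSH and 1846 in FOXOA3 FSH over GFP vehicle, against 1718, 1800 and 924. At the 75th it was 810, 814 and 409 in these, 1571 in FOXOA3-mDBD FSH over GFP FSH, 1255 in FOXOA3 FSH over FOXOA3-mDBD FSH and 1746 in FOXOA3-mDBD FSH over GFP vehicle, where fewer genes are measured by construction. The split into higher and lower genes moved by over 10 percentage points with centred ratios and with loess in 3 comparisons. Centred ratios gave 1517 higher and 1465 lower genes in FOXOA3-mDBD FSH over GFP FSH, against 1221 and 1867, then 1315 and 1319 in FOXOA3 FSH over FOXOA3-mDBD FSH, against 1913 and 932, and 1620 and 1794 in FOXOA3-mDBD FSH over GFP vehicle, against 1280 and 2215. Loess gave 1573 and 1355, 1076 and 1281, and 1641 and 1548 in these. The 75th percentile floor gave 668 and 587 in FOXOA3 FSH over FOXOA3-mDBD FSH. The second Lhcgr probe set alone gave no ratio, and Fshr had no probe set to recompute. No paired analysis was possible because each group has 1 array.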

Other observations

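Of 11 measured other hormone and growth factor receptors, 2 were 2-fold or more higher and 2 lower in GFP FSH over GFP vehicle, beside 6.84% and 11.1% of all measured genes. In FOXOA3 FSH over GFP FSH 3 of 10 were higher and 2 lower (11.1% and 6.99% of all), and in FOXOA3-mDBD FSH over GFP FSH 1 of 9 was higher and 4 lower (12.5% and 19.2%). Egfr, the receptor of the epidermal growth factor-like ligands, had 1002.1, 548.2, 2194.4 and 426.7 on FOXOA3 FSH, FOXOA3-mDBD FSH, GFP FSH and GFP vehicle, 5.14-fold higher in GFP FSH than in GFP vehicle. Amhr2, the anti-Müllerian hormone receptor, had 680.2, 343.1, 1843.5 and 919.1 on these arrays. Nr3c1, the glucocorticoid receptor, ran the other way, with 1365.0, 1142.2, 650.6 and 1946.3. So did Agtr2, with 3758.3, 574.9, 23.5 and 4043.2 on these arrays. Agtr2 was at least 40.2-fold lower in GFP FSH than in GFP vehicle and at least 37.4-fold higher in FOXOA3 FSH than in GFP FSH.

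Relatives of the receptors differed too. Tshr, the thyrotropin receptor of the gonadotropin receptor family, had 349.7 on FOXOA3-mDBD FSH and 22.2 on GFP FSH, at least 3.48-fold higher, and was below the floor on the other arrays. Among these leucine-rich repeat receptors 1 or 2 were measured in each comparison. Ghr, the growth hormone receptor of the cytokine receptor family, had 609.1, 131.7, 342.0 and 785.1 on FOXOA3 FSH, FOXOA3-mDBD FSH, GFP FSH and GFP vehicle. It was 2.30-fold lower in GFP FSH than in GFP vehicle, where Prlr was at least 50.2-fold higher. Of 8 measured relatives of the prolactin receptor, 1 was higher and 1 lower in GFP FSH over GFP vehicle (6.84% and 11.1% of all measured genes).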
